A study of Mus musculus with 4 samples.

Results

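The genes described are 35 genes of cholesterol and fatty acid synthesis and its regulation, chosen by symbol with earlier results of these data known. They comprise 15 enzymes of the sterol pathway, 14 enzymes of fatty acid synthesis, elongation and desaturation, and 6 regulators. A probe set annotated to that gene alone was found for 32 of the 35 (13 sterol enzymes, 13 fatty acid enzymes and 6 regulators), out of 22180 genes measured this way. Acat2, Idi1 and Scd2 had no such probe set and were not analysed here. Of the 32, 31 had a 4-array mean log2 value of at least 5.03, the midpoint of the ranked genes, as 11090 genes did, and Mlxipl (mean 4.88) did not.

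RNA came from the gastric corpus, the acid-secreting part of the stomach, of adult mice aged 8 to 10 weeks after 14 days of daily intraperitoneal injections. There were 4 groups with 1 microarray each. Wild-type mice (WT, C57BL/6) were given either saline (vehicle) or metformin (300 mg/kg), and so were AmpkKO mice (KO), which carried Atp4b-cre with floxed Prkaa1 and Prkaa2 on a mixed B6/FVB background. Atp4b encodes a subunit of the parietal cell proton pump, so the deletion of both catalytic AMPK subunits is aimed at parietal cells only, and the submitters describe fewer and less mature parietal cells in these mice. Genotype and strain background cannot be told apart, and the sources used here do not give the number of animals behind an array. All values are log2 expression values as deposited, and a difference of 1 is 2-fold. With 1 array per group a difference between 2 arrays has no replicate check and no p-value.

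Cholesterol is built from acetyl-CoA through mevalonate, farnesyl pyrophosphate and squalene to lanosterol, which is then trimmed to cholesterol. Fatty acids are built from acetyl-CoA by acetyl-CoA carboxylase and fatty acid synthase, then lengthened by elongases (the Elovl genes) and given double bonds by desaturases (Scd and Fads genes). Both arms are switched on by the sterol regulatory element binding proteins, encoded by Srebf1 and Srebf2, which Scap escorts out of the endoplasmic reticulum and the Insig proteins hold back there. AMPK is known to phosphorylate and inhibit acetyl-CoA carboxylase, and metformin activates AMPK in many cells. Parietal cells are rich in mitochondria and secretory membrane, and both arms supply membrane lipid.

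Most fatty acid enzymes were lowest on the KO vehicle array and highest on the WT vehicle array. The regulators were lowest on the KO vehicle array, and the sterol enzymes were not set apart by either array. Of the 31 genes past the filter, 22 (71.0%) had their lowest value on the KO vehicle array, against 44.3% of all 11090 genes. These were 12 of 13 fatty acid enzymes, 5 of 13 sterol enzymes (38.5%) and 5 of 5 regulators. Another 5 of the 13 sterol enzymes were lowest on the WT metformin array. The highest value lay on the WT vehicle array for 19 (61.3%, all genes 46.2%) and on the KO metformin array for 10 (32.3%, all genes 20.7%). Those highest on the WT vehicle array were 11 of 13 fatty acid enzymes (84.6%), 6 of 13 sterol enzymes (46.2%) and 2 of 5 regulators. After cyclic loess scaling between arrays, 17 of 31 were lowest on the KO vehicle array (all genes 35.1%), and 26 were when arrays were centred on their medians (all genes 55.3%). In whole tissue, fewer cells of a type and less RNA per cell cannot be told apart.

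**Figure D1:**
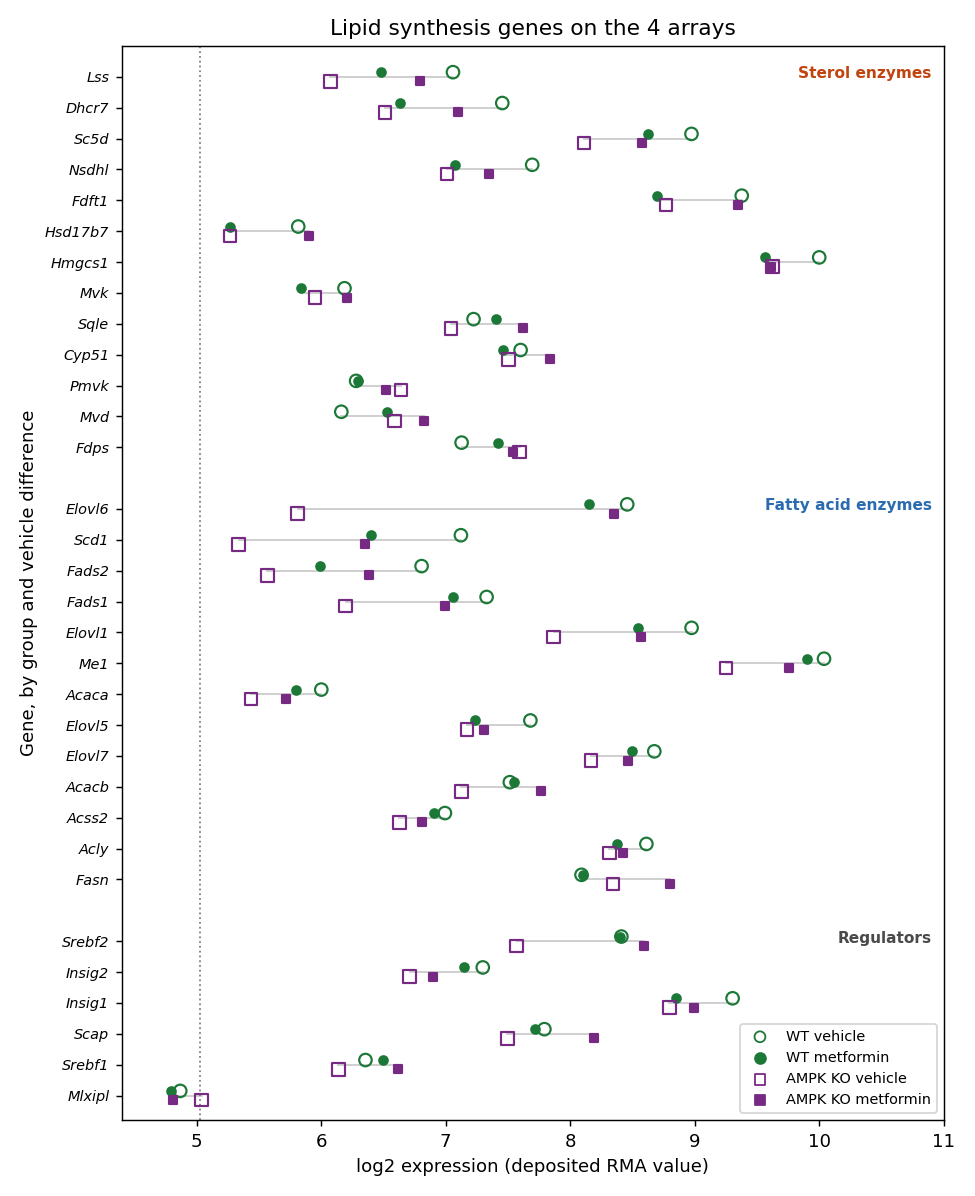
Deposited log2 values of the 32 measured genes (horizontal axis) on the 4 arrays, with genes in rows grouped as sterol enzymes, fatty acid enzymes and regulators and ordered by the vehicle difference between genotypes. Circles are WT and squares AMPK KO, open symbols are vehicle and filled symbols metformin, and the dotted line is the filter value of 5.03. The open square of Elovl6 lies at 5.81, far left of its other values (8.15 to 8.46).

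The array data were set beside promoter sequence for 3 genes: Elovl6, which differed most, Srebf2, the regulator that differed most, and Hmgcs1, 1 of only 2 genes of the group with the sterol element core in a window. Each window runs from 250 bases before to 50 bases after the gene's start, read on the gene's strand, from RefSeq on GRCm38.p6. Capitals mark matches, on either strand, to the sterol regulatory element core (TCACNCCAC), the E-box (CACGTG), the NF-Y box (CCAAT) and the Sp1 box (GGGCGG). The windows lie at chr3:129532136-129532435 (Elovl6), chr15:82147019-82147318 (Srebf2) and chr13:119690101-119690400 (Hmgcs1), all on the plus strand.
Elovl6: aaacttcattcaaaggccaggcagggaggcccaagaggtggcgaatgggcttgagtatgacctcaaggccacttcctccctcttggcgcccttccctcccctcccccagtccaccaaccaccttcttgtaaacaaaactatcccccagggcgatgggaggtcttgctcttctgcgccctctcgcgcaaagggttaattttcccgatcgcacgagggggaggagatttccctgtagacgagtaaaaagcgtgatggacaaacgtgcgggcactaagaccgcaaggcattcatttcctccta
Srebf2: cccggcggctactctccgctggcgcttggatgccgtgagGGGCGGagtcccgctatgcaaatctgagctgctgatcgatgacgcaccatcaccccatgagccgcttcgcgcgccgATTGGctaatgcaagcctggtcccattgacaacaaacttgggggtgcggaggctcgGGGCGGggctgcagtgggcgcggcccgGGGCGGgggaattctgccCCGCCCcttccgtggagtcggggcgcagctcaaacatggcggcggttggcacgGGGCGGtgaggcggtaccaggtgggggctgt
Hmgcs1: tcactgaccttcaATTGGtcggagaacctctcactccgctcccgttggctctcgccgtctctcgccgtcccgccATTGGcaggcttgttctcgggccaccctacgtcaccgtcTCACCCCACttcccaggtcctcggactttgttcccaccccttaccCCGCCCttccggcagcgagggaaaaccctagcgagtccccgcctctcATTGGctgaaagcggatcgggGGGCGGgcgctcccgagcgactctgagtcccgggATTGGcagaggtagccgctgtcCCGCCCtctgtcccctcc

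The Hmgcs1 window holds 1 match to the sterol element core, 4 to the NF-Y box and 3 to the Sp1 box. The Srebf2 window holds 5 Sp1 boxes and 1 NF-Y box, and none of the 4 motifs is found in the Elovl6 window. Matches do not overlap one another in these windows. A window was found for 29 of the 35 genes, and Fdps, Fdft1, Sqle, Scd1, Scd2 and Fads1 had none in the table. An NF-Y box stood in a window of 23 of the 29 (79.3%), against 41.1% of 27025 genes with a window, and it stood in 11 of 12 sterol enzymes and 7 of 11 fatty acid enzymes. The Sp1 box was in 23 of 29 (79.3%, all genes 38.2%), the E-box in 7 (24.1%, all genes 8.09%) and the sterol element core in Hmgcs1 and Mlxipl (6.90%, all genes 1.44%). A gene counted if any of its windows matched, and the 29 genes had 40 windows where the 27025 had 32851. The 27025 were not limited to genes past the filter, so these shares are not matched for expression or window number. A match is a run of letters and not a measured binding site.

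The genes targeted in KO parietal cells were checked. Prkaa1 stood at 9.46 in WT with vehicle, 8.90 in WT with metformin, 8.18 in KO with vehicle and 8.66 in KO with metformin, and Prkaa2 had 8.90, 8.02, 7.19 and 7.52. Both were lower in KO than in WT under each treatment, with differences of -1.28 and -1.71 under vehicle and -0.24 and -0.50 under metformin. The floxed genes stay intact wherever Atp4b-cre is not active. The KO vehicle array correlated least with the WT vehicle array (r = 0.905 over genes) and the metformin arrays most with each other (r = 0.971).

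Without the drug, the comparison of KO with WT sets a corpus in which AMPK deletion is aimed at parietal cells beside one without it. The strain background differs as well. Lipid synthesis genes were mostly lower in KO, and the 5 lowest were enzymes that lengthen or desaturate fatty acids. At least 2-fold lower were 5 of 31 genes, all fatty acid enzymes, where 8.12% of all genes were, and 0 were at least 2-fold higher, where 2.31% of all genes were. The median difference was -0.51, against -0.22 for all genes, and 24 of 31 lay below the median of all genes. The fatty acid enzymes had a median of -0.57 (12 of 13 below all genes), the sterol enzymes -0.37 (8 of 13) and the regulators -0.51 (4 of 5).

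Elovl6, which elongates palmitate-length fatty acids, stood at 8.46 on the WT vehicle array, 8.15 on WT metformin, 5.81 on KO vehicle and 8.35 on KO metformin. It was 6.26-fold lower in KO than in WT under vehicle (-2.65), while its other 3 values lay between 8.15 and 8.46. Scd1, which makes oleate from stearate, had 7.12, 6.40, 5.34 and 6.35 in the same order and a vehicle difference of -1.78. The desaturases of polyunsaturated fatty acids followed, with Fads2 at 6.81, 5.99, 5.57 and 6.38 (-1.24) and Fads1 at 7.33, 7.06, 6.20 and 6.99 (-1.13). Elovl1, the elongase of very long saturated chains, had 8.97, 8.55, 7.87 and 8.57 (-1.11). In all 5 genes the WT vehicle array was highest and the KO vehicle array lowest, with both metformin arrays between them. The 5 were picked by their vehicle difference, so this order partly follows from that choice. The other elongases, Elovl5 (-0.51) and Elovl7 (-0.51), did not reach 2-fold.

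The enzymes that supply and start fatty acid synthesis had smaller differences. Me1, a source of NADPH, was at -0.79, the acetyl-CoA suppliers Acss2 and Acly at -0.37 and -0.30, and the AMPK targets Acaca and Acacb, which encode the acetyl-CoA carboxylases, at -0.57 and -0.39. Acaca had 6.00 and 5.80 in WT (vehicle, then metformin) and 5.43 and 5.71 in KO, and Acacb 7.51, 7.55, 7.13 and 7.77. Fasn, the fatty acid synthase itself, ran the other way, with 8.09, 8.10, 8.34 and 8.80, and was the only fatty acid enzyme that was not lowest on the KO vehicle array.

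The sterol enzymes are given by step, an order chosen after the values were seen. Those from lanosterol synthesis onward had negative vehicle differences as deposited: Lss (-0.99), Dhcr7 (-0.94), Sc5d (-0.86), Nsdhl (-0.68), Hsd17b7 (-0.55) and Cyp51 (-0.10, but 0.15 after cyclic loess). Other enzymes of these late steps, outside the 35 genes, were mixed, with Msmo1 at -0.57 and Lbr at -0.49 but Ebp at 0.23 and Tm7sf2 at 0.0036. Between mevalonate and farnesyl pyrophosphate, Fdps (0.47), Mvd (0.43) and Pmvk (0.36) had positive differences, and Mvk (-0.24) and Hmgcs1 (-0.37) did not. Fdft1, the squalene synthase, was at -0.61 and the squalene epoxidase Sqle at -0.18 (0.06 after cyclic loess). No sterol enzyme reached 2-fold as deposited. Lss, lanosterol synthase, came closest, with 7.06 and 6.48 in WT (vehicle, then metformin) and 6.07 and 6.80 in KO, and Dhcr7, which completes cholesterol, had 7.45, 6.64, 6.51 and 7.09. Hmgcs1, which makes the precursor of mevalonate, had 10.00, 9.56, 9.62 and 9.61, so 3 of its arrays lay between 9.56 and 9.62.

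Among the regulators, Srebf2, the main activator of sterol genes, had 8.41 and 8.40 in WT (vehicle, then metformin) and 7.57 and 8.59 in KO, a vehicle difference of -0.84. The KO vehicle array stood below the other 3, which were close together. Insig2 (-0.59) and Insig1 (-0.51), which retain the Scap complex, were next. Insig1, itself a target of the pathway, had 9.30, 8.85, 8.80 and 9.00. Scap was at -0.30. Srebf1, which favours fatty acid genes, had 6.36, 6.49, 6.14 and 6.62 (-0.22), close to the median of all genes. Mlxipl, the carbohydrate-responsive activator of lipogenesis, was near or below the filter value on every array (4.79 to 5.04), and no fold is read from it.

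The size of this comparison moved with the scaling. After cyclic loess 3 genes were at least 2-fold lower (Elovl6, Scd1 and Fads2), where 5.07% of all genes were. With arrays centred on their medians 8 were, the 5 above with Lss, Dhcr7 and Sc5d, where 12.3% of all genes were. Among all genes at least 2-fold different, the share that was lower was 77.9% in the deposited values, 60.4% with cyclic loess and 89.5% with centring, and the all-gene median was -0.22, -0.07 and -0.37. Gene length moved with it too: genes with a genomic span of at least 23.4 kb had a median vehicle difference of -0.33 and shorter genes -0.08. The members' own medians were -0.58 for the 18 longer and -0.37 for the 13 shorter genes. With the trend on span removed, the same 5 genes were at least 2-fold lower (all genes 8.03%), and the fatty acid enzymes' distance from the median of all genes was -0.20 rather than -0.35. Of the 5, Elovl6 spans 106.1 kb (-2.50 with the trend removed) and Fads2 38.7 kb, and Fads1 (14.0 kb), Scd1 (13.3 kb) and Elovl1 (6.08 kb) are among the shorter genes. The sterol enzymes with positive differences, Fdps (8.38 kb), Mvd (9.83 kb) and Pmvk (14.5 kb), are among the shorter genes, and so are Sc5d (12.7 kb), Sqle (16.1 kb), Mvk (16.3 kb), Hmgcs1 (17.9 kb) and Hsd17b7 (19.7 kb), whose differences were negative. The part of gene length in these values was not tested further.

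**Figure D2:**
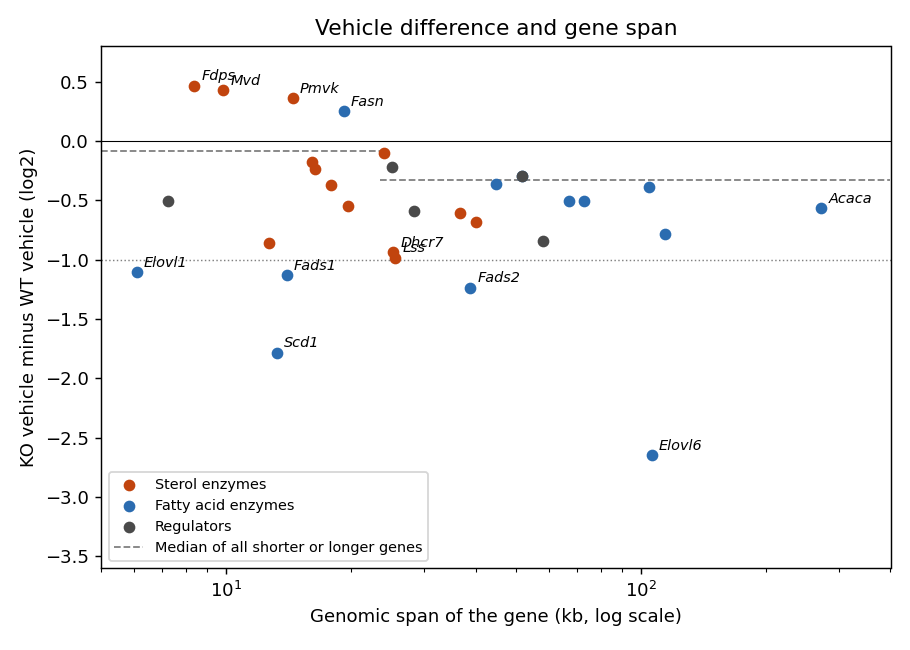
Difference of KO vehicle from WT vehicle (log2, vertical axis) against the genomic span of each gene (kb, log scale) for the 31 genes past the filter, coloured by group. Dashed lines are the medians of all genes with shorter (-0.08) and longer (-0.33) spans, the dotted line marks a 2-fold lower value, and 4 of the 5 genes below it, Scd1, Fads1, Fads2 and Elovl1, are far shorter than Elovl6 at 106.1 kb.

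The study used KO mice to seek metformin responses of progenitors and of cells other than parietal cells. Lipid synthesis genes were mostly higher with metformin in KO. At least 2-fold higher were 3 of 31 genes, Elovl6 (2.54, or 5.82-fold), Srebf2 (1.02) and Scd1 (1.01), where 2.44% of all genes were, and 0 were at least 2-fold lower, where 0.613% of all genes were. The median was 0.46, against 0.11 for all genes, and 28 of 31 exceeded that. Among all genes at least 2-fold different, 20.1% were lower in the deposited values, 32.5% with cyclic loess and 10.2% with centring. This comparison shares the KO vehicle array with the vehicle comparison, so the same low values enter both. After cyclic loess only Elovl6 (2.39) of the 31 reached 2-fold (all genes 1.76%), and with the trend on gene span removed Elovl6 (2.47) and Scd1 (1.02) did (all genes 2.48%).

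All 13 fatty acid enzymes exceeded 0.11 in KO with metformin in the deposited values (median 0.50), from Acly (0.11) and Elovl5 (0.13) to Elovl6, although those 2 lowest were at -0.04 and -0.01 after cyclic loess. Fads2 was at 0.81, Fads1 at 0.79, Elovl1 at 0.70 and Acacb at 0.64, while Fasn was at 0.46 and Acaca at 0.28. The sterol enzymes had a median of 0.33, with 10 of 13 above all genes. Lss (0.72) and Hsd17b7 (0.63) were highest, and Pmvk (-0.12), Fdps (-0.05) and Hmgcs1 (-0.01) lowest. Of the late-step enzymes outside the 35 genes, Lbr was at 0.42, Tm7sf2 at 0.28, Msmo1 at 0.17 and Ebp at -0.09. Fdft1 and Sqle were each at 0.58. Among the regulators Scap was at 0.70, Srebf1 at 0.48, Insig1 at 0.20 and Insig2 at 0.19. A second probe set of Scap, near the filter value, gave 0.09.

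In WT, where metformin targets of mature parietal cells were sought, no lipid synthesis gene reached 2-fold. The counts were 0 of 31 higher (all genes 0.775%) and 0 of 31 lower (all genes 0.929%). Of all genes at least 2-fold different, 54.5% were lower in the deposited values, 40.4% with cyclic loess and 69.3% with centring. The median was -0.24, against -0.14 for all genes, and 20 of 31 were lower than that. Sterol enzymes had a median of -0.35 and fatty acid enzymes -0.24. The lowest were Dhcr7 (-0.82), Fads2 (-0.81), Scd1 (-0.72), Fdft1 (-0.68) and Nsdhl (-0.62), and the highest Mvd (0.37), Fdps (0.29) and Sqle (0.18). Elovl6 (-0.31) and Acaca (-0.20) had small negative differences, and Srebf2 (-0.01), Fasn (0.01) and Acacb (0.03) lay near 0 with a sign that depended on the scaling.

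The WT and KO responses share no array and mostly had opposite signs. In the deposited values 23 of 31 lipid synthesis genes (74.2%) were lower with metformin in WT and higher in KO, against 46.6% of all genes. These were 11 of 13 fatty acid enzymes, 8 of 13 sterol enzymes and 4 of 5 regulators. The exceptions were Fdps and Pmvk (higher in WT and lower in KO), Hmgcs1 (lower in both), and Mvd, Sqle, Acacb, Fasn and Srebf1 (higher in both), several of them with values close to 0. After cyclic loess some of the 23 lost the pattern. Acss2 (0.03), Srebf2 (0.12) and Scap (0.06) were then higher in WT, and Acly (-0.04) and Elovl5 (-0.01) lower in KO. With centring Acacb (-0.04) and Fasn (-0.06) in WT and Hmgcs1 (0.07) in KO changed sign and took on the pattern. The KO response minus the WT response was 2.85 for Elovl6, 1.73 for Scd1, 1.63 for Fads2, 1.40 for Dhcr7 and 1.30 for Lss. No test of these differences is possible with 1 array per group.

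**Figure D3:**
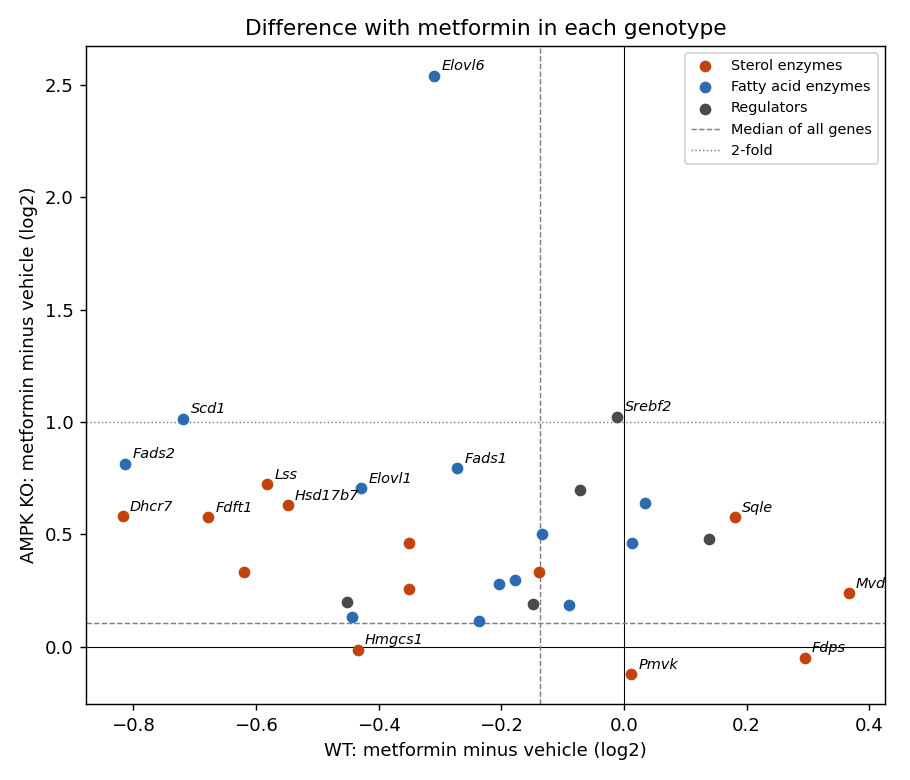
Difference with metformin in AMPK KO (vertical axis) against that in WT (horizontal axis), both in log2, for the 31 genes past the filter, coloured by group. Dashed lines are the medians of all genes (-0.14 in WT and 0.11 in KO), the dotted line is 2-fold, and most points lie in the upper left, with Elovl6 at 2.54 in KO above all others.

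Under metformin the genotypes were closer than under vehicle, over all genes as well as these. No lipid synthesis gene differed by 2-fold, with 0 of 31 higher (all genes 0.532%) and 0 lower (all genes 0.388%). The median was 0.19, against 0.02 for all genes, and this comparison does not use the KO vehicle array. As under vehicle, the sterol median lay above the fatty acid median. Sterol enzymes had a median of 0.30, with 12 of 13 above all genes, and fatty acid enzymes 0.03, with 7 of 13. Fasn (0.70), Fdft1 (0.65), Hsd17b7 (0.63) and Scap (0.47) were highest and Insig2 (-0.25) and Me1 (-0.15) lowest. The genes that were far apart under vehicle were within 0.39 of each other, with Elovl6 at 0.20, Scd1 at -0.05, Fads1 at -0.07, Fads2 at 0.39 and Elovl1 at 0.03. They were picked by their vehicle difference, so smaller differences on the other arrays partly follow from that choice.

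**Figure D4:**
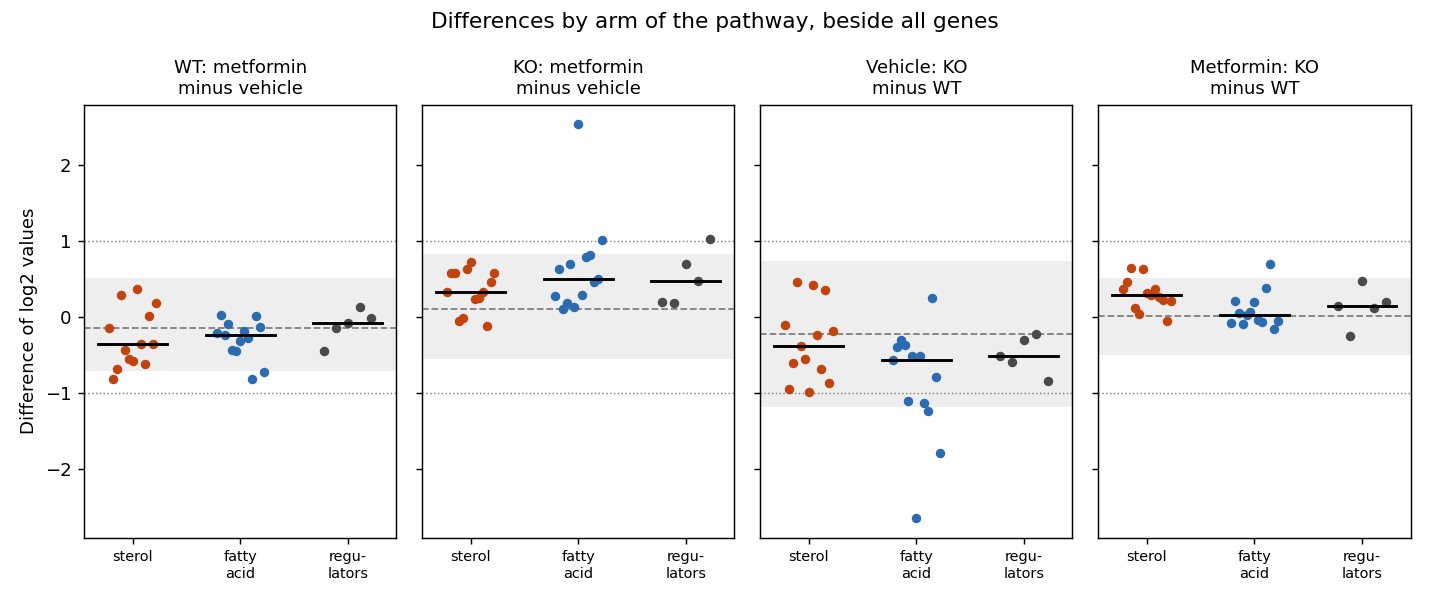
Differences of log2 values (vertical axis) for the 13 sterol enzymes, 13 fatty acid enzymes and 5 regulators past the filter, 1 point per gene, in the 4 comparisons; black bars are group medians. The grey band holds the central 90% of all genes, the dashed line is their median and dotted lines mark 2-fold, and the fatty acid median is 0.50 in the KO response and -0.57 in the vehicle comparison.

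Averaged effects of each factor were tested with limma, with genotype and treatment as additive terms over all 4 arrays. No lipid synthesis gene passed a Benjamini-Hochberg adjusted p of 0.05 for genotype (0 of 31; 5 of 11090 genes, 0.0451%, did) or for treatment (0 of 31; 0 of 11090 genes, 0.0%, did). At an unadjusted p under 0.05 the counts were also 0 of 31 and 0 of 31, with the lowest unadjusted p at 0.0548 for Scd1 (genotype) and 0.0796 for Elovl6 (treatment) in limma. This fit has 1 residual degree of freedom, which also holds the difference between the 2 responses, so a response that differs between genotypes counts there as error.

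Other genes of these pathways were taken from lists of symbols, also chosen with earlier results of these data known. Of 8 further sterol genes, 1 was at least 2-fold lower in KO under vehicle, Ggps1 (-1.59), which makes geranylgeranyl pyrophosphate, while Msmo1 was at -0.57 and Erg28 (0.45) and Ebp (0.23) were highest. In the KO response 0 of the 8 reached 2-fold, from Acat1 (-0.13) to Lbr (0.42), with a median of 0.09 against 0.11 for all genes. Of 16 further fatty acid genes, 2 were at least 2-fold lower under vehicle, the mitochondrial acetyl-CoA synthetase Acss1 (-2.24) and the elongation-cycle dehydratase Hacd3 (-1.26), and Acss1 was the 1 that was at least 2-fold higher in KO with metformin (1.54). The medians of the 16 were close to all genes in both (-0.20 and 0.11), and under vehicle 7 of the 16 were above 0. Pecr (0.27) and the elongase Elovl2 (0.26) were highest under vehicle, and Elovl2 was lowest in the KO response (-0.66). Of 9 genes of SREBP processing and turnover or its partner factors, 0 reached 2-fold in either comparison, and Mlx, the partner of the Mlxipl product, was lowest under vehicle (-0.93) and highest in the KO response (0.83). Of 11 genes of triglyceride and phospholipid synthesis, 0 reached 2-fold in either, with Lpin3 at -0.85 and Lpin1 at -0.77 lowest under vehicle, Lpin3 (0.92) and Agpat2 (0.82) highest in the KO response, and Dgat2 (0.65) highest under vehicle.

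Markers of the cells that the tissue could hold were summarised as mean log2 values over lists chosen in the same way. The 11 parietal cell markers averaged 10.50 and 10.09 in WT (vehicle, then metformin) and 9.95 and 10.15 in KO. All 11 were past the filter value on each array. Their highest array was WT vehicle and their lowest KO vehicle, where all genes were most often highest (46.2%) and lowest (44.3%). Endothelial markers (7.51, 7.22, 6.52 and 6.90) and macrophage markers (6.70, 6.59, 6.41 and 6.55) had the same highest and lowest arrays. Smooth muscle markers (10.94, 11.17, 10.07 and 10.71) were also lowest on the KO vehicle array. The 5 mucous neck cell markers averaged 9.27, 9.05, 8.99 and 9.77, lowest on KO vehicle and highest on KO metformin. In the KO response the neck list had a median of 0.96 against 0.11 for all genes. Muc6 (1.22) and A4gnt (1.19) were highest, and these were also lowest in it under vehicle (-1.05 and -1.48). The neck markers did not run one way. Their median under vehicle was 0.007, against -0.22 for all genes, and Tff2 (0.89), Gkn3 (0.21) and Aqp5 (0.007) were not lower there. Tff2 was at -0.19 in the KO response. The parietal list had a KO response median of 0.14, near the 0.11 of all genes. Under vehicle its median was -0.42, where all genes had -0.22. Of its 11 markers 10 were lower in KO under vehicle, and 1, Slc4a2 (0.15), was higher. Aqp4 (-1.54) and Slc9a4 (-1.44) were at least 2-fold lower. Adipocytes make much fatty acid, and their 13 measured markers averaged 6.05, 6.18, 5.95 and 5.98, with 7 to 9 of the 13 at or above the filter value on an array and the defining Adipoq and Lep below it on each. Their values did not run one way. Lgals12 had 10.76, 10.10, 8.20 and 10.65, lowest on the KO vehicle array as Elovl6 was. Fabp4 was opposite, with a vehicle difference of 1.29 and a KO response of -0.97, and Thrsp was at 0.56 under vehicle. The 13 measured squamous markers averaged 4.29, 4.53, 4.79 and 6.32 and were highest on the KO metformin array, led by Krtdap (9.13 there), and 5 of 6 sebaceous markers, Awat1, Awat2, Far2, Mc5r and Elovl3, were under the filter value throughout. The 4 B and plasma cell markers averaged 4.69, 4.79, 6.55 and 6.09 and the 5 mast cell markers 6.06, 5.88, 6.94 and 7.16, both averages higher on the KO arrays. Not all markers shared this. The mast cell marker Kit was lower in KO, at -1.61 under vehicle and -0.31 under metformin. Of the 4 B and plasma cell markers, 1 was at or above the filter value on each WT array and 2 on each KO array. The part of these cells in the lipid gene values was not tested.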

How the data were processed

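Log2 expression values of 4 arrays (Affymetrix WT Plus labelling, per the labels' protocols) were used as the authors deposited them. The submitters' processing notes name Partek and RMA; the sources used here give no versions, settings or array build. The log2 scale was inferred from the range (0.77 to 14.02). Of 41345 probe sets, the platform annotation pairs 23521 with 1 gene and 1814 with several, and 16010 are unnamed here; symbols were updated through RefSeq gene identifiers (GRCm38.p6, 23328 found), which also gave gene spans. Where a gene had several probe sets, that of highest 4-array mean was taken (31 of the 32 genes have only 1). The number of arrays limits the precision. Genes with a mean of at least 5.03 entered counts and limma.

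The difference code and the limma fit (limma 3.58.1, R 4.3.3) were tested on simulated data. The simulation had large additive genotype shifts and no difference between the responses, so it checks the code and not the power on these arrays. Other steps used Python 3.11.15, pandas 2.3.3 and statsmodels 0.14.6 (lowess span 0.3). Genes named with full values are those at least 2-fold different in a comparison and a few enzymes and regulators; from other lists, at most the 2 highest and 2 lowest of the KO response and of the vehicle comparison were named. Defining markers under the filter value (Adipoq, Lep and 5 sebaceous markers) were named beyond that rule, after their values were seen. The members and lists were chosen with earlier results of these data known. Removal of the span trend was added after the data were seen.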

Additional observations from a re-analysis of the deposited data

Results flagged for a closer look

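In 10 of the 31 genes (32.3%, against 14.5% of all 11090 genes) the metformin difference had opposite signs in WT and KO and the 2 differed by at least 2-fold. The KO response minus the WT response was 2.85 for Elovl6, 1.73 for Scd1, 1.63 for Fads2, 1.40 for Dhcr7, 1.30 for Lss, 1.26 for Fdft1, 1.18 for Hsd17b7, 1.13 for Elovl1, 1.07 for Fads1 and 1.03 for Srebf2. Each response is 1 array against 1, so these differences were not tested, and for Srebf2 the WT response (-0.01) has a sign that turns with the scaling (0.12 after cyclic loess).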

How the results depend on the processing

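Counts were taken as changed when they moved by over 1.5 times, and medians, given as the distance from the median of all genes, when they moved by over 1.5 times and by at least 0.1; over all alternatives 18 such values changed and 146 did not. With a 1.5-fold rule, 5 genes were lower in WT with metformin (all genes 9.06%), 10 higher in KO with metformin (12.4%), 13 lower in KO under vehicle (24.4%) and 3 higher in KO under metformin (3.11%). After cyclic loess 1 gene was higher in the KO response and 3 lower in the vehicle comparison, where centring gave 8. A filter at the 75th percentile gave 3 lower under vehicle, because Scd1 and Fads2 fell below it and Elovl6, Elovl1 and Fads1 did not. The share of all genes at that filter was not counted. With no filter, where the median of all genes covers 22180 genes, the distances were -0.21 (members), -0.34 (sterol) and -0.23 (fatty acid) in WT, 0.35 (sterol) in the KO response, and -0.54, -0.41 and -0.60 under vehicle. The vehicle distance of the sterol arm was -0.29 with regulators added. That of the fatty acid arm was -0.20 with the filter at the 75th percentile, which Scd1, Fads2 and Acaca did not pass, and -0.20 with the span trend removed. The cause of these shifts was not tested otherwise. The limma counts of members were 0 under each alternative. No paired analysis was possible because each group has 1 array, and no array can be left out of a comparison of 2.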

Other observations

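Pathways that use or export lipid were measured beside its synthesis. Of 14 genes of fatty acid oxidation past the filter, 0 reached 2-fold in the vehicle comparison or the KO response, and their medians (-0.16 and -0.10) lay near and below those of all genes (-0.22 and 0.11). Cpt1a, which admits fatty acids to mitochondria, was lowest in KO under vehicle (-0.98) and highest in KO with metformin (0.69). Of 8 genes of sterol efflux and turnover, the lysosomal cholesterol transporter Npc1 was at least 2-fold lower under vehicle (-1.41) and was at 0.84 in the KO response, where the median was -0.15 and the bile acid synthesis enzyme Cyp7b1 was lowest (-0.61).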
